A study of Mesocricetus auratus with 6 samples.

Results

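The 9 genes described here encode enzymes of the mevalonate and sterol synthesis pathway: Hmgcs1, Mvk, Pmvk, Mvd, Idi1, Fdps, Fdft1, Sqle and Hsd17b7. They were chosen by name with earlier results of these data known, so counts over the list are a description only. All 9, given here in the order of the pathway, were found among the 16078 genes listed in each library. For this, NCBI Gene IDs were matched to golden hamster symbols. The libraries came from BHK21, an established line grown from the kidney of golden hamsters (Mesocricetus auratus), whose labels give the tissue as kidney and the age as one day. The vector group (3 libraries) received pCMV-Myc, an empty plasmid, and the STYK1 group (3 libraries) received STYK1/NOK, a membrane protein with a kinase-like domain that the series calls an oncogene. Both groups were thus transfected, and RNA was taken 48 after transfection, with no unit of time in the labels. No label says that the libraries of a group were separate cultures, so every p-value rests on a spread between libraries that could be no more than technical.

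The mevalonate pathway turns acetyl-CoA into isoprenoid building blocks, from which cells make sterols, dolichol, ubiquinone and the lipid anchors of prenylated proteins. Its enzyme genes are known targets of SREBP2, a transcription factor that is held in the endoplasmic reticulum while sterols are plentiful and released by proteolysis when they run low. Genes of the pathway therefore often move together in cultured cells when sterol supply changes.

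The values are FPKM, which correct the fragments of a gene for its transcript length and for the size of the library, so levels can be compared between genes. The FPKM values summed to 619840, 554681 and 557946 in vector 1, 2 and 3 and to 528160, 530277 and 542638 in STYK1 1, 2 and 3. Every vector sum thus lay above every STYK1 sum. In each library 14119 to 14339 genes lay above 0. Total reads were not given in the sources used here; the spacing of low values put the depth of the libraries between 0.979 and 1.03 times that of STYK1 1. Vector 1 stood apart: its Pearson correlation with the other libraries, across 11464 genes that are not independent replicates, was 0.963 to 0.976, against 0.988 to 0.993 among the other 5. The hamster gene Styk1 ranged from 1.5 to 1.89 FPKM with the empty vector and from 2.04 to 2.46 FPKM with STYK1/NOK. Its log2 difference was 0.28, with an adjusted p of 0.47 (limma-trend). Whether these values include the transfected construct was not tested. Of the fibroblast markers, Vim and Fn1 lay at 3650 to 4141 and 191 to 229 FPKM in the 6 libraries, but Thy1, Col1a2 and Lum stayed under 1 FPKM. The summed level of 7 kidney epithelium markers was 0.69 to 0.98 FPKM in the vector group and 0.72 to 1.47 FPKM in the STYK1 group, with 6 of 7 under 1 FPKM in every library. Of 6 myeloid markers, Ptprc, Itgam and Lyz stayed under 1 FPKM while Cd68 and Cd14 were abundant, and the sum of the 6 was 521 to 534 FPKM in the vector group and 452 to 513 FPKM in the STYK1 group. The part of vector 1, and of these markers, in the results was not tested.

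The 9 enzymes did not share a direction. The STYK1 mean was 1.34-fold above the vector mean for Hmgcs1 and 1.42-fold above it for Idi1 and for Hsd17b7, and Fdft1 had a mean within 1.04-fold of that in vector. Pmvk, Mvd, Fdps and Mvk had lower means, by 1.41-fold, 1.25-fold, 1.23-fold and 1.20-fold, and Sqle by 1.06-fold. On the log2(FPKM + 1) scale, 4 of 9 differences were above 0 and 5 below, with a median of -0.08, beside 6045 of 11464 tested genes above 0 and a median of 0.01. None of the 9 passed the test at an adjusted p under 0.05 (limma-trend, Benjamini-Hochberg over 11464 genes), and neither did any other gene (0%). At an unadjusted p under 0.05 there were 3 enzymes higher in STYK1 libraries (4.95% of all tested genes) and 1 lower (4.88%), or 4 of 9 in either direction (9.84%).

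**Figure D1:**
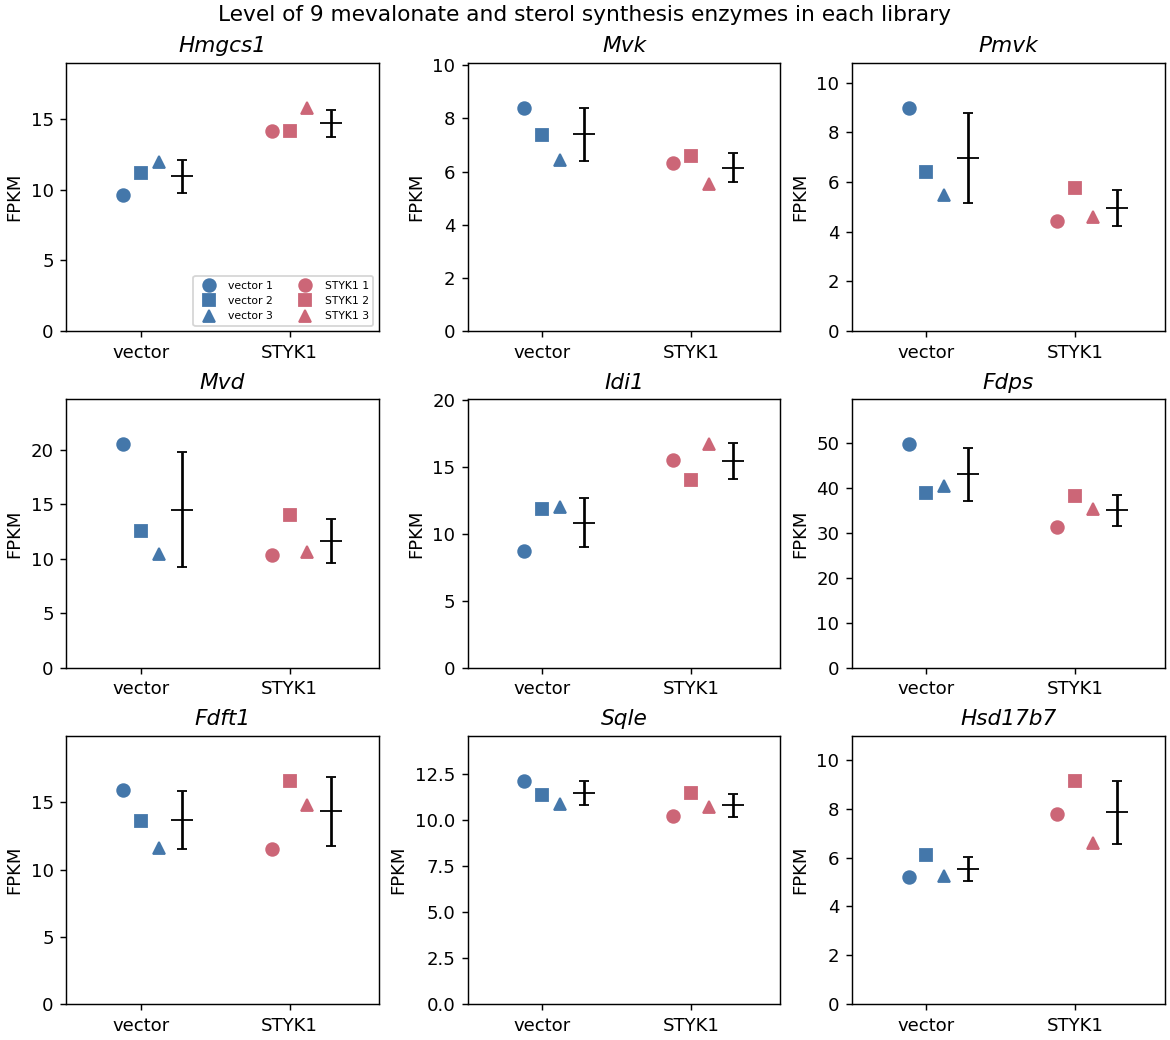
FPKM (y axis, from 0) of each of the 9 enzymes in the 3 vector (blue) and 3 STYK1 (red) libraries; the symbol shape gives the replicate number, and the black bar beside each group is its mean ± SD. The groups do not overlap for Hmgcs1, Idi1, Fdps and Hsd17b7, and vector 1 is the highest or the lowest library for 8 of the 9.

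Hmgcs1 (NCBI Gene ID 101839941), the cytosolic synthase that joins acetyl-CoA and acetoacetyl-CoA into HMG-CoA, measured 9.64, 11.2 and 11.98 FPKM in vector 1, 2 and 3 and 14.13, 14.15 and 15.79 FPKM in STYK1 1, 2 and 3. All 3 STYK1 libraries lay above all 3 vector libraries, with vector 1 the lowest of the 6. The vector mean was 10.9 ± 1.19 FPKM and the STYK1 mean 14.7 ± 0.953 FPKM (SD, n = 3 each). On the log2(FPKM + 1) scale they differed by 0.40 ± 0.11 (SE, 95% interval 0.14 to 0.66), with an unadjusted p of 0.00794 and an adjusted p of 0.469 (limma-trend). Among the 11464 tested genes it ranked 100 by p. Without vector 1 the difference was 0.32, and the groups still did not overlap.

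Mevalonate is then phosphorylated by mevalonate kinase, Mvk (101825501), and again by phosphomevalonate kinase, Pmvk (101825341). Mvk measured 8.4, 7.36 and 6.43 FPKM in the vector libraries and 6.34, 6.57 and 5.54 FPKM in the STYK1 libraries. The groups overlapped, since STYK1 2 lay above vector 3, and the means were 7.40 ± 0.986 and 6.15 ± 0.541 FPKM. Pmvk measured 8.99, 6.42 and 5.48 FPKM in the vector group and 4.45, 5.78 and 4.61 FPKM in the STYK1 group, and again only the pair of vector 3 and STYK1 2 was out of order. The log2 differences were -0.23 ± 0.13 for Mvk and -0.40 ± 0.18 for Pmvk (SE), with adjusted p-values of 0.478 and 0.469 (limma-trend). Vector 1 was the highest library for both kinases, and without it the differences shrank to -0.14 and -0.23.

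Mvd (101843593), the decarboxylase that yields isopentenyl diphosphate, had the widest spread within a group on the log2 scale: 20.5, 12.52 and 10.46 FPKM in vector 1, 2 and 3 and 10.3, 13.96 and 10.63 FPKM in STYK1 1, 2 and 3. Vector 1 alone lay far above the rest, and STYK1 2 lay above vector 2 and 3. The vector mean was 14.5 ± 5.30 FPKM and the STYK1 mean 11.6 ± 2.02 FPKM, a log2 difference of -0.25 with a 95% interval of -0.78 to 0.27 (adjusted p = 0.598, limma-trend). Without vector 1 the difference was 0.0092, so the sign of Mvd rested on that library.

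Idi1 (101824164) encodes the isomerase that interconverts isopentenyl diphosphate and dimethylallyl diphosphate, the substrate pair of farnesyl synthesis. It measured 8.7, 11.81 and 11.97 FPKM in the vector group and 15.51, 14.02 and 16.68 FPKM in the STYK1 group. The groups did not overlap, and vector 1 was again the lowest library. The means were 10.8 ± 1.84 and 15.4 ± 1.33 FPKM (SD, n = 3 each), a difference of 0.48 ± 0.14 on the log2 scale (SE, 95% interval 0.16 to 0.80). With all 6 libraries it was the largest difference of the 9, but without vector 1 and without STYK1 3 that of Hsd17b7 was larger. Its unadjusted p was 0.00859 and its adjusted p 0.469 (limma-trend), and without vector 1 the difference was 0.34.

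Farnesyl diphosphate synthase, Fdps (101824011), makes the last intermediate that sterols share with the other isoprenoids. Its level was 49.85, 39.06 and 40.48 FPKM in the vector group and 31.32, 38.36 and 35.49 FPKM in the STYK1 group. Fdps was the 1 enzyme whose STYK1 libraries all lay below the vector libraries, although STYK1 2 came within 1 FPKM of vector 2. The means were 43.1 ± 5.86 and 35.1 ± 3.54 FPKM, and the log2 difference was -0.29 ± 0.12 (SE, 95% interval -0.57 to -0.0097, unadjusted p = 0.0441, adjusted p = 0.469, limma-trend). Without vector 1 the difference was -0.18 with an unadjusted p of 0.0762 (limma-trend). With libraries scaled to equal FPKM sums the difference was also -0.18, with an unadjusted p of 0.121 (limma-trend).

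Squalene synthase, Fdft1 (101843686), and squalene epoxidase, Sqle (101828754), take the pathway into sterols. Fdft1 measured 15.9, 13.63 and 11.61 FPKM in the vector group and 11.53, 16.63 and 14.83 FPKM in the STYK1 group, with the lowest and the highest of the 6 values both in the STYK1 group. Sqle measured 12.14, 11.38 and 10.85 FPKM in the vector group and 10.23, 11.48 and 10.69 FPKM in the STYK1 group, the narrowest range of the 9. The groups overlapped for both genes. The log2 differences were 0.06 (95% interval -0.31 to 0.42) for Fdft1 and -0.08 (95% interval -0.32 to 0.16) for Sqle, with adjusted p-values of 0.883 and 0.719 (limma-trend). Each interval still allows a difference of either sign, and the sign of both genes changed under other settings: Fdft1 was at -0.05 without vector 3 or without STYK1 2, and Sqle at 0.02 with libraries scaled to equal FPKM sums.

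Hsd17b7 (101836885), a keto-reductase that acts late, in the removal of methyl groups from the sterol ring, measured 5.23, 6.12 and 5.27 FPKM in the vector group and 7.8, 9.17 and 6.61 FPKM in the STYK1 group. The groups did not overlap, with STYK1 3 the closest to vector 2. The means were 5.54 ± 0.503 and 7.86 ± 1.28 FPKM (SD, n = 3 each), a log2 difference of 0.43 ± 0.14 (SE, 95% interval 0.10 to 0.76). Its unadjusted p was 0.0159 and its adjusted p 0.469 (limma-trend). Hsd17b7 depended least on vector 1 among the 3 enzymes with higher, non-overlapping values, at 0.40 without that library. Without STYK1 2, however, Hsd17b7 was at 0.33 with an unadjusted p of 0.0608 (limma-trend). The unadjusted p of Hmgcs1 and of Idi1 was at most 0.0384 and 0.0385 in any setting (limma-trend).

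Counted over the list, the groups did not overlap for 3 enzymes higher in STYK1 libraries (13.6% of all tested genes) and for 1 lower (9.44%), or for 4 of 9 in either direction (23.1%). A two-sided exact permutation test over 3 libraries against 3 cannot go below p = 0.1, and it gives that value for each of the 4. The same 4 did not overlap when vector 1 was left out, where 17.9% and 11.9% of genes were higher and lower without overlap. Without vector 1 the median of the 9 moved to 0.0092 with 5 of 9 above 0, and 3 enzymes had an unadjusted p under 0.05 (9.47% of all tested genes): Hmgcs1, Idi1 and Hsd17b7. The signs of Hmgcs1, Mvk, Pmvk, Idi1, Fdps and Hsd17b7 held in all 14 alternative settings, other scalings and omitted libraries included, while those of Mvd, Fdft1 and Sqle did not. The other filters and the replicate block leave the difference of each enzyme unchanged by design, so they are no check of its sign. The median over all genes went from 0.01 to 0.12 under scaling to equal FPKM sums. Relative to that median, Hmgcs1 was at 0.38 in both scalings, Idi1 at 0.47 in both, Fdps at -0.30 and -0.29, and Sqle at -0.09 in both. This scaling multiplies each library by a constant, so that likeness was nearly fixed in advance. With quantile normalization, which does not, Hmgcs1, Idi1, Fdps and Sqle were at 0.35, 0.43, -0.27 and -0.13 relative to the median.

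**Figure D2:**
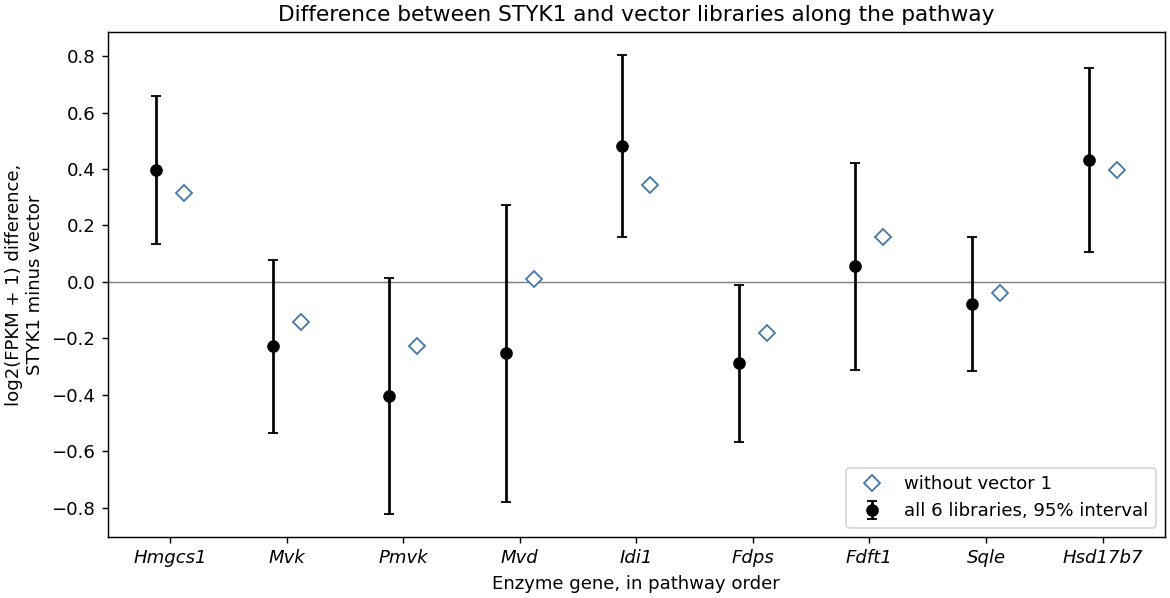
Difference in mean log2(FPKM + 1), STYK1 minus vector (y axis), for the 9 enzymes in pathway order (x axis). Black points with bars are the estimates from 6 libraries with their 95% intervals, and open diamonds the estimates without vector 1; points lie on both sides of 0 at early and at late steps, and the diamonds lie closer to 0 than the points for every enzyme except Fdft1, which moves from 0.06 to 0.16.

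Levels also differed between the steps. Fdps was the most abundant of the 9, at 39.1 ± 6.19 FPKM over the 6 libraries (SD), above every other enzyme in each library. Fdft1, Idi1, Mvd, Hmgcs1 and Sqle followed at means of 14.0, 13.1, 13.1, 12.8 and 11.1 FPKM, and the ranges of neighbours in that order overlapped. Mvk, Hsd17b7 and Pmvk were lowest, at 6.77, 6.70 and 5.96 FPKM, also with overlapping ranges. Sqle lay above Mvk in 6 of 6 libraries without overlap. Idi2, the paralog of Idi1, was listed at no more than 0.19 FPKM in any library. The assignment of fragments shared between gene copies is not stated in any source used here.

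Ratios between enzymes of the same library do not change when all values of a library are multiplied by a constant. Quantile normalization is not of this kind and can change them. The share of other gene pairs whose ratio does not overlap between the groups was not computed, so the ratios are given as a description. Hmgcs1 over Mvk was 0.20, 0.61 and 0.90 in vector and 1.16, 1.11 and 1.51 in STYK1 libraries, so the synthase exceeded the kinase by more in each STYK1 library. Idi1 over Fdps was -2.52, -1.73 and -1.76 in vector and -1.01, -1.45 and -1.09 in STYK1 libraries. Sqle over Hsd17b7 was 1.21, 0.89 and 1.04 in vector and 0.39, 0.32 and 0.69 in STYK1 libraries. Without vector 1 the differences in mean ratio were 0.51, 0.56 and -0.50 for these pairs, against 0.69, 0.82 and -0.58 with it. The ratios that overlapped were Mvk over Pmvk, Mvd over Idi1 and Fdft1 over Sqle. They follow from the values given gene by gene and are no separate evidence.

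**Figure D3:**
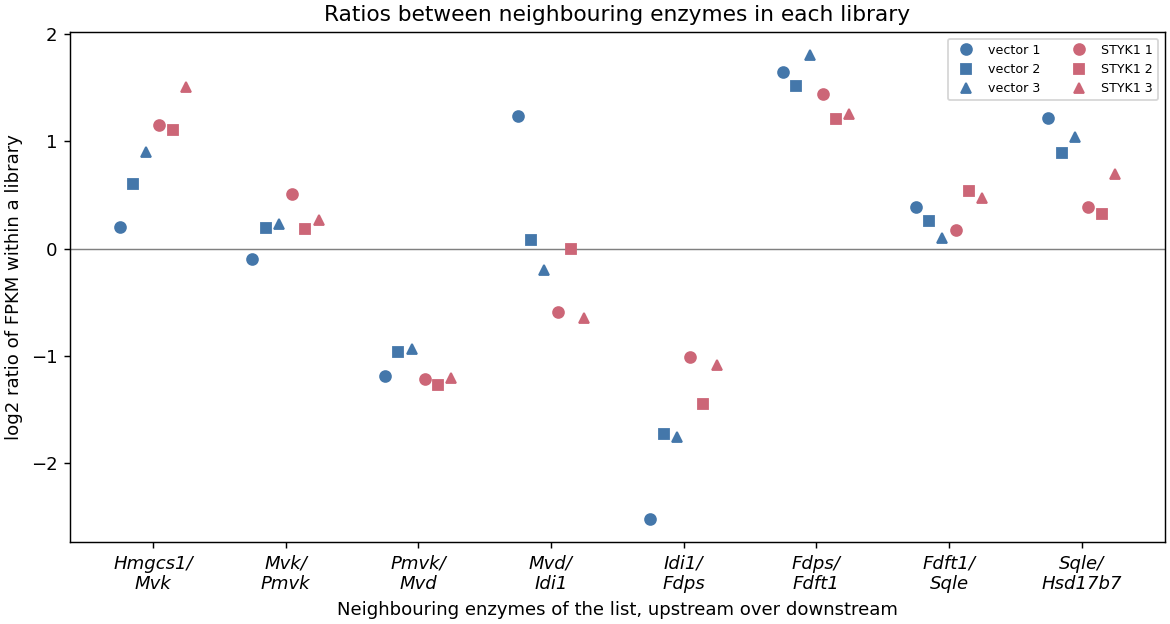
Log2 ratio of FPKM between neighbouring enzymes of the list (x axis, upstream over downstream) in each vector (blue) and STYK1 (red) library; the symbol shape gives the replicate number. The groups do not overlap for Hmgcs1 over Mvk, Pmvk over Mvd, Idi1 over Fdps, Fdps over Fdft1 and Sqle over Hsd17b7, and for Pmvk over Mvd vector 1 at -1.19 lies next to STYK1 3 at -1.21.

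The enzymes also differed in their profile over the libraries. Measured as the root mean square difference of centred log2(FPKM + 1) profiles over the 6 libraries, Hmgcs1 and Idi1 were the closest of the 36 pairs, at 0.083, and Mvd and Idi1 the farthest, at 0.58. Mvk and Sqle were next to closest, at 0.11, then Pmvk and Mvd, at 0.12. Vector 1 was the lowest library for Hmgcs1, Idi1 and Hsd17b7 and the highest for Mvk, Pmvk, Mvd, Fdps and Sqle, so these likenesses include what set that library apart. Across all tested genes with a known symbol, the profiles nearest to that of Hmgcs1 were those of Ccdc125, Akap12, a scaffold for protein kinase A, and Tram2, at 0.044, 0.044 and 0.046. Those nearest to Sqle were Icmt, the methyltransferase that finishes prenylated proteins, Ercc3, a helicase of transcription factor TFIIH, and Nub1, at 0.018, 0.019 and 0.019. The profiles were centred but not scaled, and that of Sqle spanned only 0.23. Genes with steady levels therefore lie near Sqle by this measure, whatever their role.

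The other enzymes and partner proteins of the pathway were taken from a list of 13 names, of which 10 were matched and 9 passed the filter of 1 FPKM; 0 passed the test in either direction (0 of 9 higher, 0 of 9 lower, limma-trend), and 1 of 9 was lower at an unadjusted p under 0.05, beside 4.88% of all tested genes. Their median log2 difference was 0.08, with 6 of 9 above 0, and it was 0.03 without vector 1. Lss, the cyclase that follows Sqle, measured 15.7 ± 0.806 against 17.0 ± 1.38 FPKM. Tm7sf2, a sterol reductase of the ring, had the smallest p of the list: it measured 7.14, 6.89 and 6.79 FPKM in the vector group and 4.99, 5.49 and 5.69 FPKM in the STYK1 group, without overlap (log2 difference -0.31, unadjusted p = 0.0237, adjusted p = 0.469, limma-trend). Lbr, which carries the same reductase activity in the nuclear envelope, was at 12.4 FPKM in vector 1 and at 20.98 to 26.95 FPKM in the other 5 libraries. Dhcr7, which reduces a double bond near the end of the pathway, measured 23.3 ± 2.20 against 21.0 ± 0.487 FPKM. Its STYK1 libraries also lay below all vector libraries (adjusted p = 0.527, limma-trend), but STYK1 2 at 21.35 FPKM nearly reached vector 2 at 21.54 FPKM. The log2 difference of Dhcr7 was -0.14, and -0.06 without vector 1. In this list 2 of 9 genes were lower and 0 of 9 higher without overlap, beside 9.44% and 13.6% of all tested genes.

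**Figure D4:**
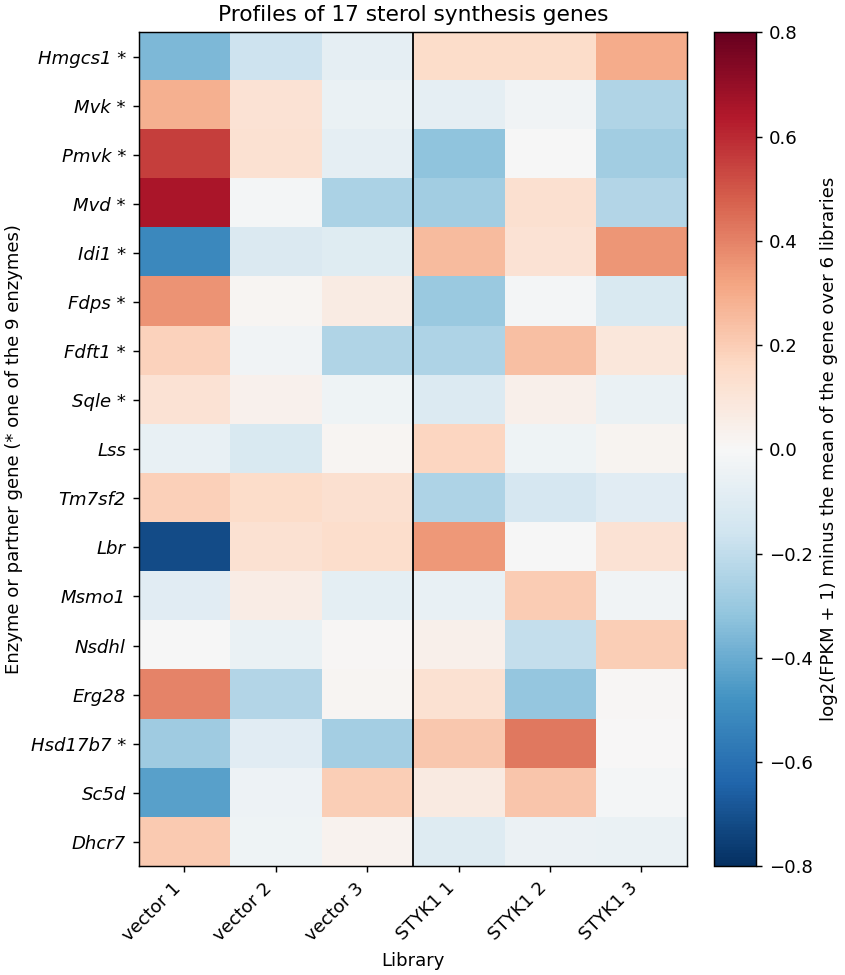
Level of 17 sterol synthesis genes (rows, roughly in pathway order, * marks the 9 enzymes) in the 6 libraries (columns), as log2(FPKM + 1) minus the mean of the gene over the libraries; red is above and blue below that mean. The STYK1 columns are above the mean for Hmgcs1, Idi1 and Hsd17b7 and below it for Mvk, Pmvk and Fdps, and vector 1 is the darkest column.

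Control of the pathway runs through SREBP and the proteins that hold or release it. Of 7 names of the SREBP machinery 6 were matched and tested, with 0 past the test (limma-trend), a median log2 difference of 0.07 and 4 of 6 above 0; the median was 0.0074 without vector 1. Srebf2, which encodes SREBP2, had a vector mean of 33.6 ± 2.32 FPKM and a STYK1 mean of 34.3 ± 2.34 FPKM. Insig1, an SREBP target that retains SREBP in the endoplasmic reticulum, measured 61.6, 49.91 and 50.29 FPKM in the vector group and 49.59, 71.12 and 42.66 FPKM in the STYK1 group, so its highest and lowest values were both in STYK1 libraries. Its paralog Insig2 measured 23.1 ± 2.85 against 25.5 ± 1.79 FPKM. The proteases that release SREBP, Mbtps1 and Mbtps2, measured 48.7 ± 5.41 against 52.5 ± 3.40 FPKM and 5.32 ± 2.95 against 7.05 ± 1.54 FPKM, and Mbtps2 was lowest in vector 1 at 2.01 FPKM. The log2 difference of Mbtps2 was 0.47 with that library (adjusted p = 0.55, limma-trend) and 0.000179 without it. The log2 differences of Hmgcs1, Idi1 and Hsd17b7 were 0.40, 0.48 and 0.43, beside 0.03 for Srebf2 and -0.01 for Insig1. Mbtps2, at 0.47 with vector 1 included, lay within the range of these enzymes. No difference between any of these genes was tested.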

How the data were processed

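RNA from 3 vector and 3 STYK1 libraries was made into Illumina TruSeq RNA libraries, per the labels' protocols. The authors deposited 1 FPKM value per gene and library, per the file headers. Bowtie 0.12.2 and mouse builds mm8 and mm9 are named, with no role, in the submitters' processing notes; the genome, annotation and counting tool behind FPKM, and use of strand, were not given in the sources consulted, so genes that overlap others or have near copies are uncertain. Of 16078 IDs, 15049 matched the RefSeq table of hamster assembly BCM_Maur_2.0, used only for names.

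The 11464 genes that averaged 1 FPKM or more in either group, all 9 enzymes among them, were tested with limma-trend (limma 3.58.1, R 4.3.3, robust, two-sided) on log2(FPKM + 1), a scale that understates changes of low genes, with Benjamini-Hochberg adjustment over all of them. Folds are ratios of mean FPKM. The test was checked only on simulated data with added changes larger than any difference of the 9 enzymes. That check does not cover differences of their size. Relative depth came from the most frequent log2 ratio of values between 0.8 and 6 FPKM (bandwidth 0.005); absolute depth is unknown, so no counting interval is given.

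The enzymes and lists were chosen with earlier results of these data known. Named were the 9 enzymes, Lss, Srebf2, Insig1, the 3 genes of smallest p in each of 7 wider lists, and the 3 profiles nearest to Hmgcs1 and to Sqle; some genes this rule chose are not reported here. Marker lists covered fibroblast, kidney epithelium, myeloid and hepatocyte genes; the 1 hepatocyte gene matched, Apoa1, was at 0 to 0.73 FPKM. Of 3 housekeeping genes matched, Hprt1 was listed at 0 to 0.12 FPKM, Actb measured 2188 against 2204 FPKM and Tbp 21.1 against 20.5 FPKM, vector against STYK1. Alternatives were another pseudocount (0.1), no filter or 5 FPKM, 3 scalings, library quality weights, a replicate block and leaving out each library. Planned searches of promoters were not run, and no sequences are used here.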

Additional observations from a re-analysis of the deposited data

How the results depend on the processing

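Of the 9 enzymes, 6 kept their sign in all 14 alternatives, and none passed the adjusted threshold in any (adjusted p = 0.0619 to 0.988, limma-trend). The other filters and the replicate block cannot change the sign of an enzyme, since its difference is the same there by design. The sign changed for Mvd without vector 1 (0.0092; with 1 library left out it ranged from -0.44 to 0.0092), for Fdft1 without vector 3 (-0.051), without STYK1 2 (-0.053; range with 1 library left out -0.053 to 0.19) and with quality weights (-0.0095), and for Sqle with equal FPKM sums (0.025). The cause was not tested. The median of the 9 ranged from -0.14 with quantile normalization to 0.025 with equal sums, and 3 to 5 of 9 lay above 0. Over all genes, quality weights gave 24 genes past the threshold, and leaving out 1 library 0 to 2, against 0 (limma-trend; 1128 at an unadjusted p under 0.05, and 354 to 1712 with 1 library left out). With quality weights, where vector 1 had a weight of 0.129, Idi1 was at 0.38 (adjusted p = 0.0619) and Hmgcs1 at 0.33 (adjusted p = 0.0838). The replicate numbers share no stated source. Deviations of same-numbered libraries correlated at -0.27, -0.16 and 0.11 across genes, and those of differently numbered libraries at -0.28 to 0.28. Deviations within a group sum to 0, so these values balance around 0 and cannot decide whether libraries were paired. With a replicate block 0 genes passed (831 at an unadjusted p under 0.05, limma-trend), and no call at the adjusted threshold changed. The block leaves each difference, and so the median of -0.08 over the 9, unchanged by design. Fdps had an unadjusted p of 0.0803 with the block against 0.0441 without it (limma-trend). For the 7 wider lists, a median counted as moved when it shifted by at least the SD of the list's mean level between replicates. A count had to change by more than a set ratio. By this rule 18 of 196 alternative values moved. The others were not all unchanged: the median of the branches from farnesyl diphosphate was 0.018, and -0.0099 with median centring, which counted as unmoved. The replicate block cannot change these medians and counts. Depth in reads is unknown, so precision rests on the spread between 3 libraries.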

Other observations

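Beyond the sterol branch, 11 of 12 named genes of the branches from farnesyl diphosphate were matched and tested, with 0 past the test (limma-trend). Of these genes, 6 of 11 were above 0, with a median log2 difference of 0.02 (-0.0081 without vector 1). Ggps1, Dhdds and Fnta, of geranylgeranyl, dolichol and farnesyl transfer, measured 29.6 ± 2.18, 30.2 ± 1.07 and 57.1 ± 5.04 FPKM in vector libraries, where Fdps measured 43.1 ± 5.86 FPKM; these 3 were chosen after their values were seen. The branch genes of smallest p were Pggt1b, at 7.29 ± 0.877 against 8.61 ± 0.569 FPKM without overlap of the groups, Rabggta, at 9.05 ± 2.38 against 6.91 ± 1.35 FPKM, and Nus1, at 19.4 ± 2.83 against 21.2 ± 0.558 FPKM. Rabggta was highest in vector 1, at 11.8 FPKM, like Pmvk and Mvd.

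Sterol uptake, transport and storage genes were above 0 for 5 of 6 tested (of 10 named), with a median of 0.15 and of 0.10 without vector 1, and 0 past the test. Stard4, a cytosolic sterol carrier and SREBP2 target, measured 2.9, 5.51 and 6.31 FPKM in the vector group and 7.39, 6.53 and 7.19 FPKM in the STYK1 group, without overlap. Its log2 difference of 0.49 was 0.22 without vector 1 (adjusted p = 0.469 with it, limma-trend). Soat1, which esterifies cholesterol, was at 24.98 FPKM in vector 1 and 35.41 to 42.32 FPKM elsewhere. Npc1 measured 20.2 ± 0.376 against 21.6 ± 1.25 FPKM.

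Abca1, the LXR target that exports cholesterol, measured 25, 29.05 and 30 FPKM in the vector group and 32.47, 40.1 and 31.5 FPKM in the STYK1 group, without overlap (log2 difference 0.29, unadjusted p = 0.0399, adjusted p = 0.469, limma-trend). Of all tested genes, 4.95% were higher at an unadjusted p under 0.05 and 13.6% higher without overlap. Without vector 1 the difference of Abca1 was 0.22, with an unadjusted p of 0.0712 (limma-trend). The LXR genes Nr1h2 and Nr1h3 measured 41.8 ± 3.72 against 36.3 ± 2.14 FPKM and 19.5 ± 1.37 against 17.4 ± 1.74 FPKM. That list had 4 of 7 names tested, 2 above 0, a median of -0.04 (0.03 without vector 1) and 0 past the test. Of 6 turnover genes 3 were above 0 with a median of -0.02 (-0.0037 without vector 1) and 0 past the test; Marchf6, a ubiquitin ligase that acts on squalene epoxidase, measured 25.1 ± 2.33 against 28.5 ± 1.64 FPKM and Ube2g2 36.9 ± 3.59 against 33.9 ± 1.38 FPKM. Of 7 tested fatty acid synthesis genes 5 were above 0, with a median of 0.12 (0.04 without vector 1) and 0 past the test; Elovl6, Acss2 and Fasn measured 5.31 ± 1.25 against 6.41 ± 0.495 FPKM, 1.42 ± 0.423 against 1.05 ± 0.108 FPKM and 16.6 ± 2.03 against 18.3 ± 1.28 FPKM.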
